A study of Mus musculus with 11 samples.

Results

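RNA of NIH/3T3 cells in which Xap5 was knocked out was compared with RNA of wild-type (WT) cells of the same line, NIH/3T3, which is established from embryonic fibroblasts of the mouse. The comparison used the libraries with the genotype labels Xap5 KO (3 libraries) and WT (2 libraries), 5 of the 11 libraries of the series, and all expressed genes were described by function and gene family. Both groups were cultured alike: cells were plated sparsely, kept for 24 h in medium with 10% calf serum, and then held for 24 h in medium without serum before RNA was taken. RNA was isolated with TRIzol and made into libraries with NEBNext Ultra II chemistry. The labels name no separate clones or cultures, so Xap5 KO was taken as 1 line, and p-values measure only the spread between libraries, which may be technical. The libraries labelled Nono KO and Sox5 KO (3 each, same line and culture) were part of the same fit. They entered its gene filter, its scaling and the estimate of spread that all groups shared. They also served to show where Xap5 KO differed from other knockout lines grown the same way.

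Xap5 is the alias of the X-linked mouse gene Fam50a. Its protein is a conserved nuclear protein that has been found in the C complex of the spliceosome, the machine that removes introns from RNA precursors. Withdrawal of serum moves fibroblasts out of the cell cycle into quiescence, in which genes of DNA replication and mitosis are weakly expressed and many cells build a primary cilium. Fibroblasts also make the collagens, proteoglycans and growth factors of connective tissue, and large parts of this program respond to serum, to TGF-beta and to tension on the actin skeleton.

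Levels are given as CPM, the count divided by the library size in units of 1e6 after scaling by edgeR. The WT libraries held 37795093 and 41468521 counts and the Xap5 KO libraries 37153144 to 39905996. A level of 3 counts in a library, used below as the floor of detection, equalled 0.0681 to 0.0773 CPM, and floors and counting intervals cover counting error only. Mitochondrial genes took 6.20% and 6.28% of the counts in WT and 7.89% to 10.3% in Xap5 KO. All 12 fibroblast markers were expressed in both groups, with a summed level of 24662 and 24799 CPM in WT and 18870 to 20203 CPM in Xap5 KO, and 4 of them were called higher and 5 lower. Markers of other cell types ranged from absent to abundant. The macrophage markers C1qa, Itgam and Tyrobp, the epithelial markers Epcam, Krt5, Krt8 and Krt18, the muscle factors Myod1 and Pax7 and the endothelial markers Tie1, Emcn and Cldn5 had no counts in any of the 5 libraries. The endothelial list summed to 13.5 and 15.9 CPM in WT and to 33.5 to 36.2 CPM in Xap5 KO, and of its members Vwf was called. The chondrocyte list summed to 346 and 350 CPM in WT and to 142 to 161 CPM in Xap5 KO, and the osteoblast list to 2539 and 2580 CPM in WT and 1511 to 1705 CPM in Xap5 KO, with Sox9 and Spp1 among their lower members. The neural list summed to 40.2 and 44.7 CPM in WT and to 23.4 to 36.5 CPM in Xap5 KO, and 4 of its 8 tested genes were lower. The part of these markers in the results was not tested.

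The targeted gene checks the labels. Fam50a stood at 64.8 and 62.9 CPM in WT and at 7.49, 7.91 and 7.86 CPM in Xap5 KO (log2 fold change -3.04, SE 0.0874, edgeR adjusted p = 7.67e-17), so that Xap5 KO kept 12.1% ± 0.36 of the WT level (SD, n = 3). The groups did not overlap. Fam50b, its close relative, had no counts. The other genes of the spliceosome differed by less and in both directions: of 71 tested spliceosome genes, Fam50a included, 12 were called higher and 13 lower, with a median log2 fold change of 0.02. A gene was called at an edgeR adjusted p under 0.05, and over all 13332 tested genes 23.2% were called higher and 22.3% lower, with a median of 0.00. Among the spliceosome genes, Fam50a alone was called with a difference of at least 2-fold. The Prp19 and C complex genes, which act around the catalytic steps of splicing and include Fam50a, held 3 higher and 8 lower genes of 33 (24.2% lower, near the 22.3% of all tested genes), among the lower Isy1 (-0.42), Bcas2 (-0.41), Dhx38 (-0.40) and Syf2 (-0.39). Among the core proteins of the U1 and U2 particles, Snrpd3 (-0.47) fell, while Snrpc (0.64), Snrpd1 (0.49) and Snrpa (0.34) rose. Of the 14 genes of the tri-snRNP, the particle that brings U4, U5 and U6 RNA, 4 were called higher. Of 36 genes for SR proteins and hnRNPs, which set splice site choice, 6 were called higher, led by Hnrnpab (0.41) and Hnrnph2 (0.36), and 6 lower, led by Hnrnph3 (-0.47) and Tra2a (-0.31). Values in parentheses after a gene are its log2 fold change in Xap5 KO against WT. Splice forms could not be seen in gene counts and were not analysed here. The number of spliceosome genes called higher was 7 under scaling by library totals, 6 without WT replicate 1, 7 without WT replicate 2 and 7 without Xap5 KO replicate 2. The number of SR protein and hnRNP genes called higher was 3 under the chromosome offset and 3 without WT replicate 1. The number of SR protein and hnRNP genes called lower was 15 under the length and GC offset, 3 without WT replicate 1 and 11 without Xap5 KO replicate 3. Calls that a setting ended were those of Isy1 (-0.15 under the chromosome offset), Dhx38 (-0.03 under the chromosome offset), Snrpd3 (0.01 under the chromosome offset), Snrpd1 (0.19 under the length and GC offset), Hnrnph2 (0.00 under the chromosome offset), Hnrnph3 (0.01 under the chromosome offset) and Tra2a (-0.04 under the chromosome offset).

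The overall comparison had many small changes and a smaller set of very large ones. The median absolute log2 fold change of called genes was 0.52, and 5.67% of tested genes were called at least 2-fold higher and 4.61% at least 2-fold lower. The groups did not overlap for 63.7% of all tested genes, and they overlapped for 62 of the called ones. Lack of overlap is thus the common case and does not by itself set apart a gene named above or below. At most 3 counts in each WT library were found for 130 of the higher genes, and at most 3 counts in each Xap5 KO library for 127 of the lower genes. Less RNA per cell and fewer cells of a kind cannot be told apart in bulk libraries. Alternatives named below as length and GC offset or chromosome offset correct each library for the length and GC content of transcripts, or each gene for the median fold change of its chromosome.

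**Figure D1:**
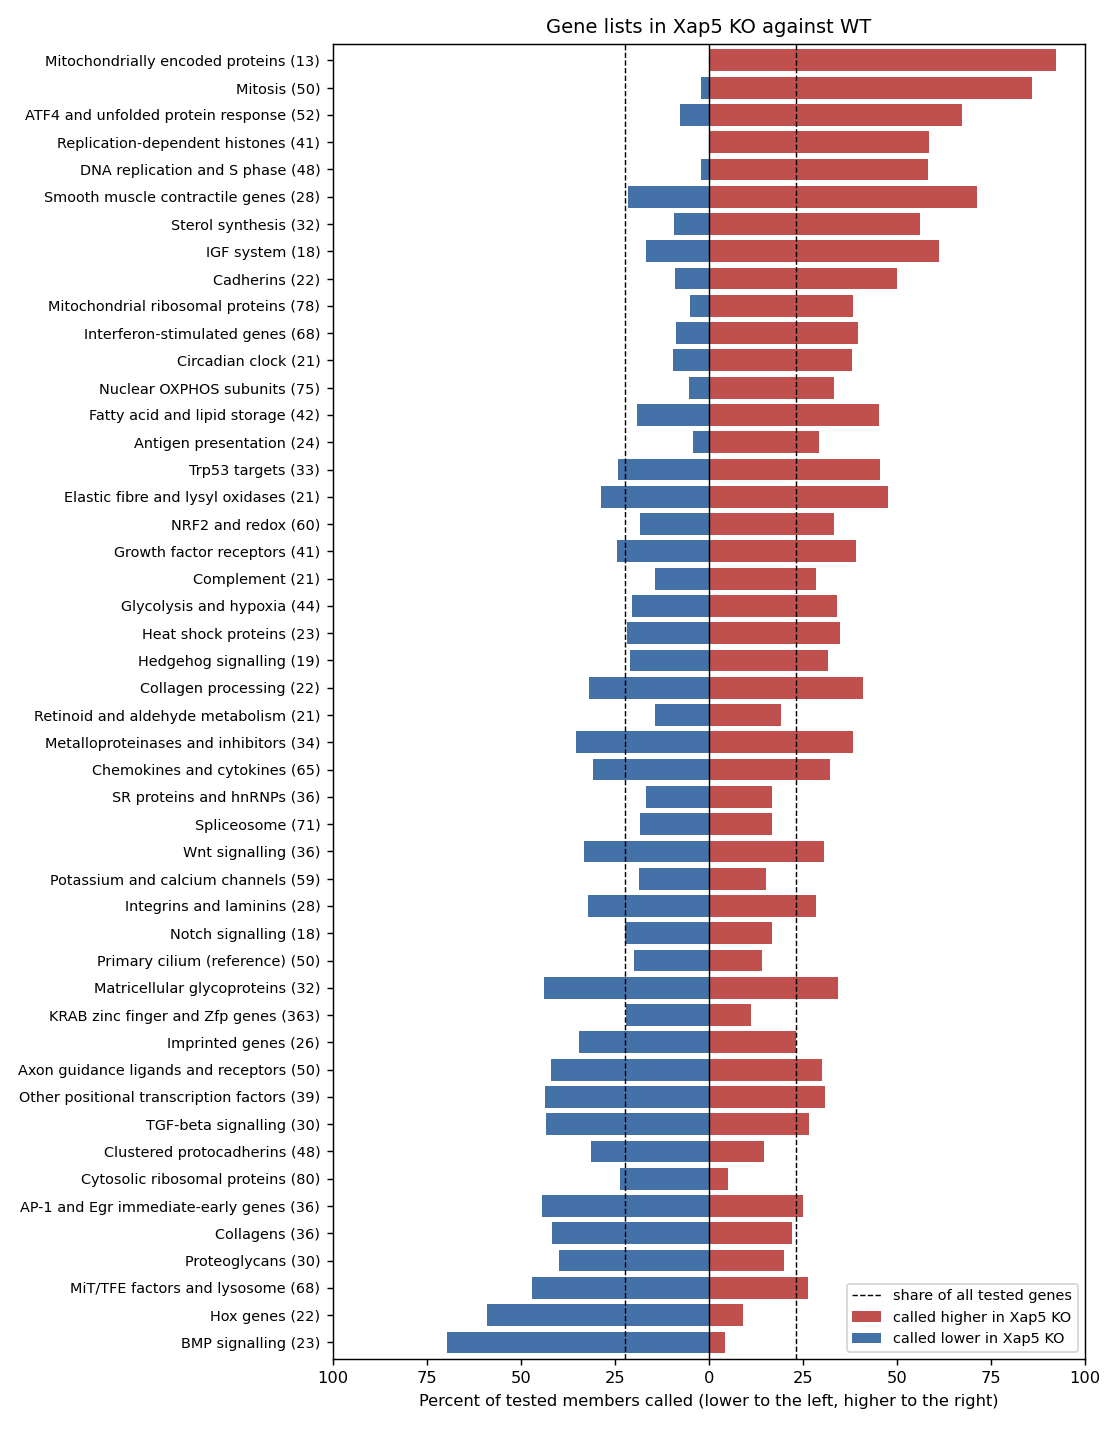
Percent of the tested members of each gene list (number of tested members in brackets) called higher (red, to the right) and lower (blue, to the left) in Xap5 KO against WT, for the 48 lists with at least 10 tested members. The dashed lines mark the shares over all tested genes, 23.2% higher and 22.3% lower. Mitochondrially encoded, mitosis, ATF4 and contractile genes lie far to the right of the line, and BMP and Hox genes far to the left.

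The 12 called genes with the highest fitted fold change and a mean of at least 5 CPM in Xap5 KO were Mmp3, Tfec, Shroom2, Ms4a4d, Ces1d, Adh1, Ccdc85a, Defb41, Sema3c, Olfml1, Ppargc1a and Irag1. Mmp3, which encodes stromelysin, a secreted protease that cuts matrix proteins and activates other proteases, stood at 0 CPM in both WT libraries and at 95.99, 99.4 and 99.6 CPM in Xap5 KO and was at least 1321-fold higher. Tfec, a transcription factor of the MiT/TFE family that otherwise acts in macrophages, stood at 0 CPM in both WT libraries and at 25.7, 29.9 and 28.8 CPM in Xap5 KO and was at least 378-fold higher. Both had no counts in WT and similar levels in the 3 Xap5 KO libraries. The actin regulator Shroom2 was at least 77.8-fold higher, the membrane protein gene Ms4a4d 1810.0-fold higher (95% counting interval 619 to 8779) and the beta-defensin Defb41 151-fold higher (95% counting interval 51.5 to 735). The carboxylesterase Ces1d stood at 0.0496 and 0.227 CPM in WT and at 71.8, 83.6 and 108 CPM in Xap5 KO (9.24), and the secreted guidance factor Sema3c stood at 1.61 and 0.704 CPM in WT and at 111, 108 and 87.7 CPM in Xap5 KO (6.48). Ppargc1a, the coactivator PGC-1alpha that promotes mitochondrial genes, stood at 0.298 and 0.5901 CPM in WT and at 30.6, 32.03 and 40.01 CPM in Xap5 KO (log2 fold change 6.24, SE 0.397, edgeR adjusted p = 2.43e-08). The remaining genes were the alcohol dehydrogenase Adh1 (8.02), Ccdc85a (7.69), the olfactomedin-like matrix gene Olfml1 (6.44) and Irag1 (6.07), a regulator of calcium release. Of the 12 macrophage markers, 6 were tested and none of these was called. They summed to 7.54 and 8.42 CPM in WT and to 10.4 to 12.2 CPM in Xap5 KO. The markers C1qa, Itgam and Tyrobp had no counts in all 5 libraries. Whether Tfec is linked to other cells was not tested. The fitted value ran, on leaving out 1 library, to 8.56 without WT replicate 1 and 10.68 without WT replicate 2 for Ces1d, to 7.17 without WT replicate 1 for Sema3c, to 7.12 without WT replicate 1 and 11.92 without WT replicate 2 for Adh1, to 6.78 without WT replicate 1 and 11.59 without WT replicate 2 for Ccdc85a and to 8.01 without WT replicate 1 and 5.65 without WT replicate 2 for Olfml1.

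The 12 lowest called genes included the Y-linked genes Ddx3y, Uty, Eif2s3y and Kdm5d, with Ndn, Cd24a, Grem1, Shc2, Col15a1, Cst6, Tmcc3 and Mab21l2. Ndn, an imprinted growth-restraining gene expressed from the paternal allele, stood at 36.8 and 34.7 CPM in WT and at 0 CPM in all 3 Xap5 KO libraries and was at least 462-fold lower. Grem1, a secreted BMP antagonist, stood at 129 and 132 CPM in WT and at 0.515, 0.341 and 0.489 CPM in Xap5 KO (log2 fold change -8.18, SE 0.153, edgeR adjusted p = 6.27e-17). Col15a1, a basement membrane collagen, stood at 40.9 and 42.9 CPM in WT and at 0, 0.438 and 0 CPM in Xap5 KO (log2 fold change -8.08, SE 0.639, edgeR adjusted p = 2.24e-05). Each had no or nearly no RNA left in the 3 Xap5 KO libraries. The cell surface glycoprotein gene Cd24a (-8.41) and the adaptor gene Shc2 (-8.16) fell by similar amounts. The protease inhibitor Cst6 was 253-fold lower (95% counting interval 98.2 to 929.8) and Tmcc3 220.0-fold lower (95% counting interval 74.8 to 1071). The developmental gene Mab21l2, whose exons overlap Lrba on the opposite strand, fell (-6.85). On leaving out 1 library at a time the fitted value ran to -13.61 without Xap5 KO replicate 2 for Col15a1, to -9.35 without Xap5 KO replicate 1 for Cd24a and to -10.87 without Xap5 KO replicate 1 for Mab21l2.

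Most genes of mitosis, and part of those of DNA replication, were higher in Xap5 KO. Of 50 tested mitosis genes, 43 were called higher, 25 of them at least 2-fold, and 1 lower, with a median log2 fold change of 0.99. Of 48 replication genes, 28 were called higher and 1 lower, with a median of 0.42. Spc24, a kinetochore subunit, stood at 2.21 and 2.18 CPM in WT and at 8.98, 8.13 and 7.88 CPM in Xap5 KO (log2 fold change 1.92, SE 0.214, edgeR adjusted p = 2.46e-07). Top2a, the topoisomerase that untangles chromosomes before they separate, stood at 104 and 82.2 CPM in WT and at 203, 224 and 200.5 CPM in Xap5 KO (log2 fold change 1.17, SE 0.139, edgeR adjusted p = 5.60e-05). Ccnb1, the cyclin that drives entry into mitosis, stood at 11.7 and 11.01 CPM in WT and at 28.2, 29.99 and 28.3 CPM in Xap5 KO (log2 fold change 1.34, SE 0.141, edgeR adjusted p = 1.01e-07). In each the lowest Xap5 KO library was above the higher WT library. The motor genes Kif4 (1.56) and Kif20a (1.53), whose exons overlap Cdc23 on the opposite strand, and the ubiquitin-conjugating enzyme Ube2c (1.51), which marks mitotic cyclins for destruction and overlaps Tnnc2, also rose. The lower mitosis gene was Cdk1, the mitotic kinase itself, which stood at 34.04 and 26.1 CPM in WT and at 21.4, 24.1 and 25.97 CPM in Xap5 KO (log2 fold change -0.34, SE 0.125, edgeR adjusted p = 0.0344). Among replication genes, the thymidylate synthase Tyms (1.51), the origin loader Cdc6 (1.49), the thymidine kinase Tk1 (1.41) and the G1/S cyclin Ccne1 (1.19) rose most, and the origin licensing factor Cdt1 (-0.78) fell. The subunits of the replicative helicase, Mcm2 (0.13), Mcm3 (0.02), Mcm4 (0.23), Mcm5 (0.10), Mcm6 (0.37) and Mcm7 (0.34), were not called, though each but Mcm3 was called higher under at least 1 alternative, Mcm2 and Mcm5 under the chromosome offset (0.40 and 0.46) and Mcm6 and Mcm7 in DESeq2 (0.36 and 0.33). The levels do not give a share of dividing cells. The calls lost in some setting were those of Cdk1 (-0.35 to 0.14 without WT replicate 1 or Xap5 KO replicate 1 or 2, under the chromosome offset).

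Nono KO and Sox5 KO were compared with the same Xap5 KO libraries. Called against both of these lines as well, in the same direction, were 19 of the 43 higher mitosis genes and 20 of the 28 higher replication genes, against 28.7% of all genes called higher against WT (6.65% of all tested genes). Replication-dependent histone genes, whose transcripts are made in S phase and mostly lack a poly(A) tail, held 24 higher genes of 41. Their median was 2.28, or 1.95 with genes at the floor set to their bound. Some members had few counts in WT and passed the filter only through libraries where they were higher, which can raise both medians. The list summed to 57.5 and 64.95 CPM in WT and to 148 to 162 CPM in Xap5 KO. Levels were low, as H2bc4 stood at 4.47 and 4.33 CPM in WT and at 20.6, 21.1 and 23.98 CPM in Xap5 KO (log2 fold change 2.31, SE 0.149, edgeR adjusted p = 5.10e-11) and H2bc8 stood at 0.298 and 0.477 CPM in WT and at 5.53, 6.38 and 8.99 CPM in Xap5 KO (log2 fold change 4.15, SE 0.477, edgeR adjusted p = 2.35e-06). The highest of those above 1 CPM were H4c18 (4.17), H2bc8, H4c12 and H4c8 (3.67). H4c12 stood at 0.0744 and 0.0681 CPM in WT and at 0.489, 1.39 and 1.47 CPM in Xap5 KO and was 15.7-fold higher (95% counting interval 7.05 to 43.7). Near-identical histone copies share reads, so values of single copies are uncertain. Of 33 Trp53 targets, 15 were called higher and 8 lower. The kinase Plk2 (1.76), the death receptor genes Eda2r (1.0) and Fas (0.74), the epoxide hydrolase Ephx1 (0.94) and the cell cycle inhibitor p21, Cdkn1a (0.37), rose. The death gene Pmaip1 (-2.15), the metabolic regulator Tigar (-1.65), the stress gene Sesn1 (-0.94) and the p53 inhibitor Mdm2 (-0.71) fell. Trp53 itself was at -0.03 and was not called. The number of histone genes called higher was 13 with at least 10 counts in every library (of 16 tested). The number of p53 target genes called higher was 9 without WT replicate 2. With 1 library left out, the fitted value ran to 3.24 without WT replicate 1 and 8.35 without WT replicate 2 for H4c18.

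**Figure D2:**
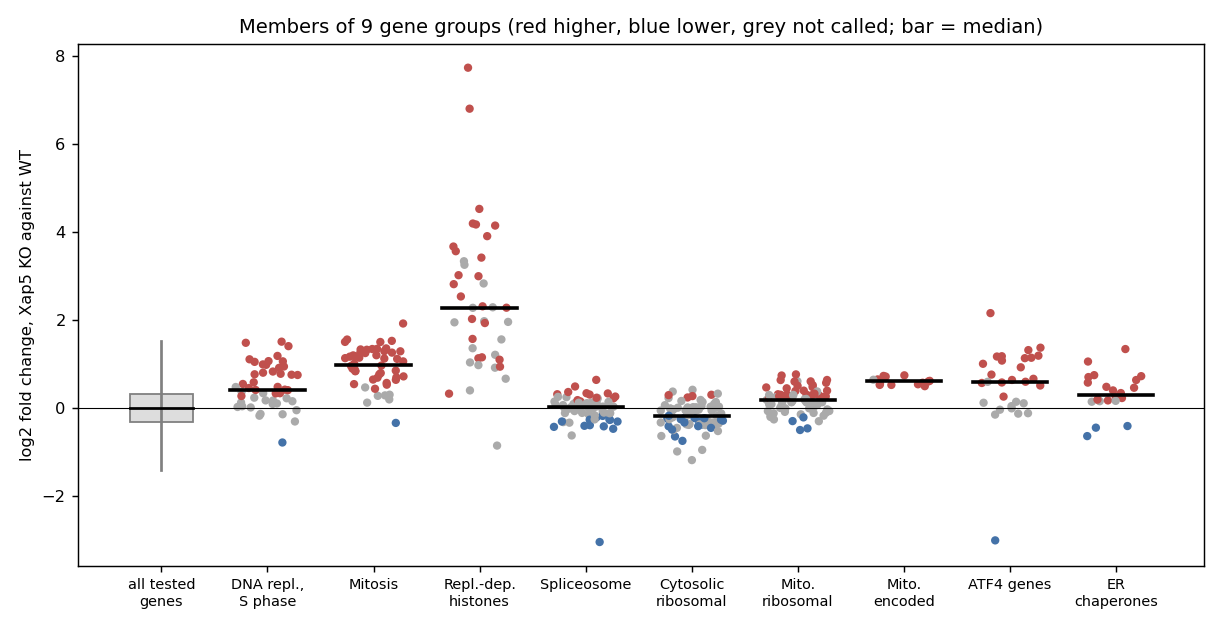
Log2 fold change of Xap5 KO against WT (vertical axis) for the tested members of 9 gene groups (horizontal axis), 1 point a gene, with the group's median as a bar. The box for all tested genes spans the quartiles and its line reaches further into both tails. Mitosis genes centre on 0.99 and spliceosome genes on 0.02, with Fam50a alone at the bottom. Histones centre on 2.28, with genes near the floor in WT included.

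Promoters of mitosis genes are known for a cell cycle homology region (CHR), which the repressing DREAM complex binds in quiescent cells, often near CCAAT boxes bound by NF-Y. The CHR was searched as TTTGAA and the CCAAT box as CCAAT, on both strands, in the 250 bases before the start of transcription given by RefSeq on GRCm38.p6. Of 42 tested mitosis genes with a promoter in that table, 14 held a CHR (33.3%), 32 a CCAAT box (76.2%) and 13 both (31.0%). Among 10396 tested genes with a promoter the shares were 13.2%, 41.0% and 5.08%. Of the 36 of these mitosis genes called higher, 11 held a CHR, 27 a CCAAT box and 10 both. These shares were no higher than among all 42, so the motifs did not set the higher mitosis genes apart from the rest of the list. Cdk1, called lower, held both motifs, as did Bub3 and Espl1, which were not called. Promoters of Ube2c (chr2:164769679-164769928, + strand) and Ckap2l (chr2:129297213-129297462, - strand) are shown because both genes rose, at 1.51 and 1.35, and both hold the pair. The sequences run 5′ to 3′ in the direction of transcription and capitals mark the motifs. A match is a description of the letters, not evidence of binding.
Ube2c: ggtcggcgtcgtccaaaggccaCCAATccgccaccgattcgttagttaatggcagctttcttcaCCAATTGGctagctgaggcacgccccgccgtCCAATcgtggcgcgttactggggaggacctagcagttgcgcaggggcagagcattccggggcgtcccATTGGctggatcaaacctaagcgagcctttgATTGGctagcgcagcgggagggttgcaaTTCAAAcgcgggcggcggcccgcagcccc
Ckap2l: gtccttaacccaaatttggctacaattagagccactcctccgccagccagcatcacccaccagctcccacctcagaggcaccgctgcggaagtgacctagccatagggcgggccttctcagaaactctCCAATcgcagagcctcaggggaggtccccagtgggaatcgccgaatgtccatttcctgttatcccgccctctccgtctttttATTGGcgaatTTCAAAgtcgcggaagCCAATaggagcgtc

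Smooth muscle contractile genes were mostly higher in Xap5 KO, including abundant actin and myosin genes. Of 28 tested contractile genes, 20 were called higher and 6 lower, with a median of 0.81. Acta2, the smooth muscle actin that marks myofibroblasts, stood at 139.7 and 149 CPM in WT and at 1849, 1605 and 1452 CPM in Xap5 KO (log2 fold change 3.50, SE 0.107, edgeR adjusted p = 3.85e-14). Tagln, the actin-bundling protein transgelin, whose exons overlap Pcsk7, stood at 13.6 and 14.6 CPM in WT and at 192, 189.9 and 200.2 CPM in Xap5 KO (log2 fold change 3.78, SE 0.118, edgeR adjusted p = 7.89e-13). Myl9, the regulatory light chain of smooth muscle myosin, stood at 4.32 and 3.29 CPM in WT and at 31.01, 25.3 and 27.9 CPM in Xap5 KO (log2 fold change 2.89, SE 0.147, edgeR adjusted p = 6.80e-12). As for 63.7% of all tested genes, the groups did not overlap for these 3, and in each the Xap5 KO libraries were close together. The muscle intermediate filament gene Des was at least 33.5-fold higher, and the list of skeletal muscle markers that holds it summed to 0.52 and 0.99 CPM in WT and to 2.16 to 4.04 CPM in Xap5 KO, with Myod1 and Pax7 at 0. The enteric actin Actg2 (4.73) and the actin nucleator Lmod1 (4.19) rose. The LIM protein gene Csrp2 (-2.51), the actin-binding genes Synpo2 (-1.46) and Smtn (-0.44) and the integrin Itga8 (-0.43) fell. Srf, the factor that drives many of these genes, rose (0.97).

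**Figure D3:**
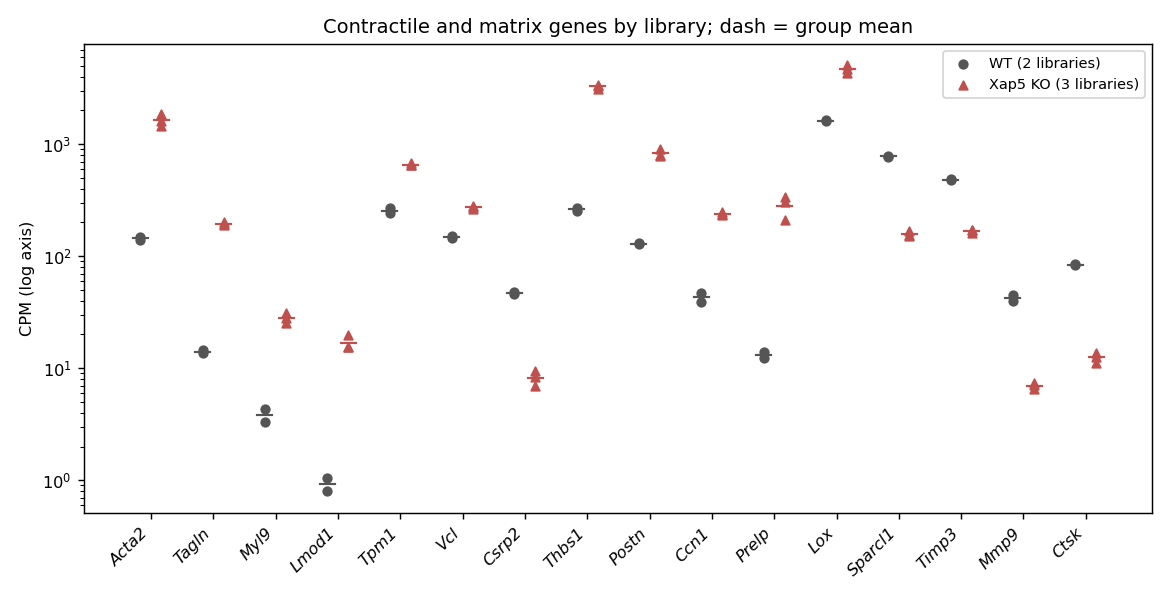
Level of contractile and matrix genes in CPM (vertical log axis) in each WT library (circles) and Xap5 KO library (triangles), with the group mean as a dash. Acta2, Tagln, Myl9, Lmod1, Thbs1, Postn and Prelp sit higher in every Xap5 KO library than in WT, and Csrp2, Sparcl1, Timp3, Mmp9 and Ctsk lower.

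SRF binds the CArG box, which was searched by its consensus on both strands in the same windows and can overlap a CCAAT box. It was found in 4 of 24 tested contractile genes with a promoter (16.7%), namely Cnn2 (0.83), Myl6 (0.28), Myl9 and Vcl, against 1.39% of tested genes. All 4 rose, out of 18 contractile genes with a promoter that did. Many listed genes are known to be driven by SRF, so the difference from all tested genes is no result of these data. The promoters of Myl9 (chr2:156775214-156775463, + strand) and Vcl (chr14:20929148-20929397, + strand) are shown because both genes rose, Myl9 at 2.89 and Vcl, which encodes the focal adhesion protein vinculin and overlaps Ap3m1 on the opposite strand, at 0.88. Capitals mark the box.
Myl9: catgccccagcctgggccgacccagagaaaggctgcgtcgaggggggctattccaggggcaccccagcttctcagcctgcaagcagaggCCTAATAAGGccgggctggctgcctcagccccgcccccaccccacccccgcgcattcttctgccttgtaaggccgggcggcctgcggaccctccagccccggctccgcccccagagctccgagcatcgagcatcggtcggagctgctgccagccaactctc
Vcl: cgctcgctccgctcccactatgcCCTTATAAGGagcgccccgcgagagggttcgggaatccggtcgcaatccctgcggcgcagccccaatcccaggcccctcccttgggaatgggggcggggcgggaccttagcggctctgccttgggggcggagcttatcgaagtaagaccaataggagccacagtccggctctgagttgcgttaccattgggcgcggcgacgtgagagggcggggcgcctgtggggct

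Immediate-early genes, which serum switches on within minutes, were more often lower. Of 36 tested, 9 were called higher and 16 lower. Jun, a subunit of the AP-1 factor, stood at 346 and 347 CPM in WT and at 105, 111 and 114 CPM in Xap5 KO (log2 fold change -1.66, SE 0.0668, edgeR adjusted p = 2.44e-14), and its relatives Junb (-0.85) and Jund (-0.69) fell as well. Egr3 (-1.33) and Atf3 (-1.29) fell, Egr1 rose (0.25), and Fos was at -0.14, not called. The genes that feed back on ERK signalling held 2 higher and 8 lower members of 12: the phosphatases Dusp5 (-1.26) and Dusp6 (-0.88) and the receptor antagonist Spry2 (-1.17) fell, whereas Spry1 rose from 1.59 to 9.41 CPM in the group means (2.57). The orphan receptors Nr4a1 (1.03) and Nr4a3 (0.93) rose. Without WT replicate 1, 5 feedback genes were called lower. The number of immediate-early genes called lower was 10 without WT replicate 1. Not called in every setting were Egr1 (0.18 to 0.30 without WT replicate 1 or 2 or Xap5 KO replicate 3, under scaling by library totals) and Nr4a3 (0.70 to 1.13 without WT replicate 1 or 2 or Xap5 KO replicate 1 or 2, under scaling by library totals, without the expression filter, without the mitochondrially encoded genes, under the chromosome offset).

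Genes of the extracellular matrix changed in both directions, with some of the most abundant transcripts of these cells among them. Of 36 tested collagen chains, 8 were called higher and 15 lower, with a median of -0.26. Col1a1, a chain of the main fibrillar collagen, stood at 1124 and 1055 CPM in WT and at 1913, 1916 and 2135 CPM in Xap5 KO (log2 fold change 0.87, SE 0.104, edgeR adjusted p = 5.75e-06). The fibrillar chains Col11a1 (3.19), Col5a2 (1.88) and Col5a1 (0.86), the short-chain Col8a1 (2.35) and the basement membrane chains Col4a1 (1.19) and Col4a2 (1.18) rose. Col3a1 (-1.0) and the 3 main chains of the bead-forming type VI fell, Col6a1 (-1.08), Col6a2 (-0.97) and Col6a3 (-0.66). Col15a1, the cartilage chain Col2a1, which was 50.2-fold lower (95% counting interval 16.7 to 247), Col28a1 (-3.77) and Col5a3 (-3.02) were lowest. Of 22 genes that modify and fold collagen, 9 were called higher and 7 lower. The collagen-binding Sparc (1.48), the prolyl hydroxylase P4ha2 (0.99) and the collagen chaperone Serpinh1 (0.95) rose, and the procollagen protease Adamts14 (-2.55) and the hydroxylase complex genes P3h4 (-0.70) and P3h3 (-0.63) fell. The number of collagen processing genes called lower was 4 without WT replicate 2. Across the fits that left out 1 library, the fitted value ran to -2.87 without WT replicate 1 and -5.18 without Xap5 KO replicate 2 for Col28a1.

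Matricellular genes, which encode matrix proteins that signal to cells more than they bear load, held 11 higher and 14 lower members of 32. Thbs1, thrombospondin 1, an activator of latent TGF-beta, stood at 267 and 255 CPM in WT and at 3398, 3321 and 3117 CPM in Xap5 KO (log2 fold change 3.65, SE 0.07901, edgeR adjusted p = 2.22e-18). Postn, periostin, stood at 131 and 128 CPM in WT and at 806, 777 and 899 CPM in Xap5 KO (log2 fold change 2.68, SE 0.0757, edgeR adjusted p = 6.45e-17), and Ccn1, a ligand of integrins, stood at 47.1 and 39.1 CPM in WT and at 236, 235 and 246 CPM in Xap5 KO (log2 fold change 2.47, SE 0.0819, edgeR adjusted p = 9.75e-16). Sparcl1, a relative of Sparc, stood at 771 and 789.9 CPM in WT and at 169, 155 and 151 CPM in Xap5 KO (log2 fold change -2.30, SE 0.0694, edgeR adjusted p = 1.89e-16). The first 3 were above every WT library and Sparcl1 below. Matn4 (-4.12), Ccn3 (-2.33) and Ecm2 (-2.24) also fell, as did fibronectin, Fn1 (-0.65), which went from a group mean of 13961 CPM to 8894 CPM. Of 21 elastic fibre genes, 10 rose and 6 fell. The crosslinking enzyme Lox stood at 1633 and 1618 CPM in WT and at 5061, 4727 and 4288 CPM in Xap5 KO (log2 fold change 1.53, SE 0.0779, edgeR adjusted p = 1.20e-12). Fbln1 (3.18), Mfap5 (3.02) and Mfap4 (1.60) of the microfibrils rose, and Ltbp4 (-3.02), which holds latent TGF-beta in the matrix, elastin, Eln (-2.60), Ltbp3 (-0.60) and Ltbp1 (-0.55) fell. A change of setting ended the calls of Mfap4 (1.14 without WT replicate 2) and Eln (-2.76 to -2.43 without WT replicate 1 or 2). The fitted value ran, on leaving out 1 library, to -5.91 without Xap5 KO replicate 2 for Matn4, to -2.87 without Xap5 KO replicate 2 for Ecm2 and to 2.21 without WT replicate 1 for Mfap4.

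Of 30 proteoglycan genes, 6 were called higher and 12 lower, and all 6 higher ones were small leucine-rich proteoglycans. Prelp, a collagen-anchoring member of that family, stood at 13.8 and 12.4 CPM in WT and at 335, 303 and 212 CPM in Xap5 KO (log2 fold change 4.44, SE 0.232, edgeR adjusted p = 1.14e-06), and Bgn, biglycan, stood at 1654 and 1639 CPM in WT and at 3997, 3759 and 3493 CPM in Xap5 KO (log2 fold change 1.19, SE 0.0683, edgeR adjusted p = 8.66e-12). The collagen-binding relatives Omd (1.91) and Aspn (1.40) rose, while Lum (-2.14) and Dcn (-0.51) fell. The large and cell-surface proteoglycans held 8 lower genes of 18 (5 with at least 10 counts in every library), with Gpc4 (-4.58), Cspg4 (-0.68), Sdc3 (-0.63) and versican, Vcan (-0.52), lowest of those above 1 CPM. Of 34 metalloproteinases and inhibitors, 13 were called higher and 12 lower. Besides Mmp3, its neighbour in the stromelysin family Mmp10 was at least 55.7-fold higher, and Adamts9 (2.36) and Adamts5 (1.21), which cut aggrecan-type proteoglycans, rose. Mmp9, the gelatinase, stood at 39.9 and 45.5 CPM in WT and at 7.41, 7.06 and 6.47 CPM in Xap5 KO (log2 fold change -2.61, SE 0.108, edgeR adjusted p = 3.46e-14). Timp3, a matrix-bound inhibitor of these proteases, whose exons overlap Syn3, stood at 479.9 and 486 CPM in WT and at 170.2, 162 and 172 CPM in Xap5 KO (log2 fold change -1.52, SE 0.0547, edgeR adjusted p = 3.54e-15). Mmp24 was at least 16.8-fold lower, and Adamts14 also fell. Timp2 (-0.24) and Reck (-0.33) fell, so that 3 of 5 inhibitors were called lower. The number of metalloproteinase and inhibitor genes called higher was 8 with at least 10 counts in every library (of 24 tested). Some settings lost the calls of Dcn (-0.04 under the chromosome offset).

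Integrin and laminin genes held 8 higher and 9 lower members of 28. The collagen receptors moved in opposite directions, as Itga1 stood at 0.868 and 0.204 CPM in WT and at 6.64, 6.91 and 8.27 CPM in Xap5 KO (log2 fold change 3.78, SE 0.337, edgeR adjusted p = 2.89e-08) and Itga2 stood at 3.08 and 2.56 CPM in WT and at 0 CPM in all 3 Xap5 KO libraries and was at least 36.5-fold lower. Lama4, a laminin chain of vessel walls, rose (2.19) and Lama2, the chain of muscle basement membranes, fell (-2.54). Itgb5 (0.86) and Itgb8 (0.70), which pair with alpha V to bind and activate latent TGF-beta, rose, while the leukocyte integrin Itgb2 (-1.3) and the fibronectin receptor subunit Itga5 (-0.51) fell. Of 22 cadherins and non-clustered protocadherins, which hold cells together, 11 were called higher and 2 lower, with a median of 0.73. Cdh2, N-cadherin, stood at 129 and 142 CPM in WT and at 223, 211 and 198 CPM in Xap5 KO (log2 fold change 0.63, SE 0.0812, edgeR adjusted p = 2.15e-06). Cdh26 (2.13), Cdh19 (1.79), Pcdh10 (1.47) and the giant cadherin Fat4 (1.27) rose, and Celsr3 (-3.35) fell. Clustered protocadherins held 7 higher and 15 lower genes of 48. They share constant exons and overlap each other on the same strand, so single genes are uncertain and none is named. The number of clustered protocadherin genes called higher was 4 with at least 10 counts in every library (of 30 tested), 2 without WT replicate 1, 4 without WT replicate 2, 4 without Xap5 KO replicate 1 and 3 without Xap5 KO replicate 3. On leaving out 1 library at a time the fitted value ran to 5.12 without WT replicate 1 and 3.05 without WT replicate 2 for Itga1.

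Signals of the TGF-beta superfamily changed in both directions, with most of the listed BMP antagonists lower. Of 30 TGF-beta genes, 8 were called higher and 13 lower. Inhba, which encodes the activin A chain, stood at 11.2 and 10.9 CPM in WT and at 103, 109 and 97.8 CPM in Xap5 KO (log2 fold change 3.23, SE 0.1097, edgeR adjusted p = 1.43e-15). The activin-binding Fst (1.75) and the pseudoreceptor Bambi (1.75), which both also restrain BMP signals, rose. The ligands Tgfb1 (-0.52) and Tgfb3 (-0.65), the activin-binding Fstl3 (-0.97), the corepressor Tgif1 (-0.71) and the inhibitory Smad7 (-0.68) fell, while Tgfb2 rose (0.41). BMP signalling genes were more often lower: of 23 tested, 1 was called higher and 16 lower, with a median of -0.30. Of the 6 antagonists, 5 fell, among them Grem1, Bmper (-1.25), Nbl1 (-0.79) and Twsg1 (-0.16). The coreceptor Rgmb fell (-1.17), and so did the direct targets Id1 (-0.25), Id2 (-0.93), Id3 (-0.80) and Smad6 (-0.52). The gene called higher was Id4 (0.48). The number of BMP genes called lower was 10 without WT replicate 2. Calls depended on the setting for Twsg1 (-0.17 to -0.16 without WT replicate 1 or 2 or Xap5 KO replicate 2), Id1 (-0.28 to -0.19 without WT replicate 1 or 2 or Xap5 KO replicate 3) and Id4 (0.18 to 0.50 without WT replicate 1 or 2 or Xap5 KO replicate 1, under the chromosome offset). With 1 library left out, the fitted value ran to 1.11 without WT replicate 1 and 2.93 without WT replicate 2 for Fst.

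Of 36 Wnt genes, 11 were called higher and 12 lower. Sfrp1, a secreted Wnt inhibitor, stood at 36.9 and 39.8 CPM in WT and at 183, 179.6 and 157 CPM in Xap5 KO (log2 fold change 2.17, SE 0.0821, edgeR adjusted p = 7.81e-15), and Wnt5a, a non-canonical ligand, stood at 15.7 and 20.2 CPM in WT and at 3.65, 4.09 and 5.204 CPM in Xap5 KO (log2 fold change -2.06, SE 0.178, edgeR adjusted p = 5.87e-09). The inhibitors Notum, at least 38.3-fold lower, Dkk2 (-6.74) and Sfrp2 (-1.15) fell, so inhibitors moved both ways. The receptor gene Fzd1 (1.05) and the feedback gene Axin2 (1.69) rose, and the R-spondin receptors Lgr6 (-1.21) and Lgr4 (-1.0) fell. In Notch signalling, 3 of 18 genes were called higher, led by the target Hes1 (1.53), and 4 lower, with the receptor Notch1 at -1.73. The receptor Notch2 was at -0.01 and was not called. Hedgehog genes, whose signal passes through the primary cilium, held 6 higher and 4 lower members of 19. The ligand-release gene Disp2 (1.65) and the coreceptor Boc (1.19) rose, Ptch1 (0.31) and Gli2 (0.35) rose by less, and Disp1 (-1.60), the coreceptor Gas1 (-0.72) and Smo (-0.48) fell. Among the named genes, calls were lost for Axin2 (1.44 to 1.68 without WT replicate 2 or Xap5 KO replicate 3, in a fit of the 5 libraries alone), Ptch1 (0.00 to 0.31 without WT replicate 1 or Xap5 KO replicate 2 or 3, under scaling by library totals, under the chromosome offset) and Gli2 (0.32 without WT replicate 2). Across the fits that left out 1 library, the fitted value ran to -10.97 without Xap5 KO replicate 3 for Dkk2.

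Both insulin-like growth factor genes and several other growth factor genes rose. Of 18 genes of the IGF system, 11 were called higher and 3 lower, with a median of 0.40. Igf1 stood at 0.248 and 2.04 CPM in WT and at 28.4, 25.7 and 32.4 CPM in Xap5 KO (log2 fold change 4.62, SE 0.584, edgeR adjusted p = 2.98e-04) and Igf2, whose exons overlap a predicted gene on the same strand, stood at 3.42 and 0.635 CPM in WT and at 47.9, 39.6 and 56.1 CPM in Xap5 KO (log2 fold change 4.59, SE 0.473, edgeR adjusted p = 1.30e-04). In both, every Xap5 KO library was above the WT libraries. The binding protein genes Igfbp5 (3.80) and Igfbp4 (1.71) and the hormone Stc1, at least 26.2-fold higher, which restrains cleavage of IGF binding proteins, rose. The clearance receptor Igf2r (-0.68) and the docking protein gene Irs2 (-0.39) fell, and the signalling receptor Igf1r was at 0.01, not called. Of 41 other growth factors and receptor tyrosine kinases, 16 were called higher and 10 lower. Ligands led the higher genes: Vegfc (2.45), Fgf10 (2.09) and Pdgfc (1.72), with Fgf7, the keratinocyte growth factor, which stood at 205 and 204 CPM in WT and at 442, 462 and 385 CPM in Xap5 KO (log2 fold change 1.07, SE 0.0797, edgeR adjusted p = 8.20e-10). Egfr, the epidermal growth factor receptor, stood at 5.76 and 4.83 CPM in WT and at 0.412, 0.438 and 1.19 CPM in Xap5 KO (log2 fold change -2.96, SE 0.464, edgeR adjusted p = 2.20e-05), and the stem cell factor Kitl (-0.95), Flt1 (-0.72) and Fgfr1 (-0.50) fell. Calls that a setting ended were those of Irs2 (-0.03 under the chromosome offset) and Fgfr1 (-0.13 under the chromosome offset). The fitted value ran, on leaving out 1 library, to 3.80 without WT replicate 1 and 6.83 without WT replicate 2 for Igf1, to 6.22 without WT replicate 1 and 3.80 without WT replicate 2 for Igf2, to 5.78 without WT replicate 1 and 2.95 without WT replicate 2 for Igfbp5 and to -3.64 without Xap5 KO replicate 3 for Egfr.

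Axon guidance genes, which fibroblasts use in migration and contact, held 15 higher and 21 lower members of 50. Ntn1, netrin 1, stood at 125 and 113 CPM in WT and at 4.61, 2.29 and 2.96 CPM in Xap5 KO (log2 fold change -5.18, SE 0.218, edgeR adjusted p = 1.09e-08), and Slit2, the repellent that binds Robo receptors, stood at 193 and 196 CPM in WT and at 791, 792 and 739 CPM in Xap5 KO (log2 fold change 1.99, SE 0.0679, edgeR adjusted p = 1.45e-15). Ntn1 was the lower and Slit2 the higher in every Xap5 KO library. Slit3 (1.70), the Eph receptor Epha7 (2.33) and the ephrin Efnb2 (1.3) rose beside Sema3c. Epha10, at least 14.4-fold lower, Ephb6 (-2.38), Sema7a (-1.60), Efna1 (-1.57) and the semaphorin coreceptors Plxna4 (-1.56) and Plxna2 (-1.07) fell.

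Hox genes, whose expression records the position of a fibroblast in the body, were more often lower. Of 22 tested Hox genes, 2 were called higher and 13 lower, with a median of -0.64, or -0.63 with genes at the floor at their bound. Hoxa3 stood at 66.2 and 64.05 CPM in WT and at 27.97, 22.5 and 19.7 CPM in Xap5 KO (log2 fold change -1.48, SE 0.143, edgeR adjusted p = 3.02e-07) and Hoxa5 stood at 39.2 and 40.3 CPM in WT and at 22.03, 24.4 and 25.1 CPM in Xap5 KO (log2 fold change -0.74, SE 0.1198, edgeR adjusted p = 3.30e-05), and the groups did not overlap for either. Hoxb6 was at least 13.8-fold lower and Hoxa10 153-fold lower (95% counting interval 41.97 to 1275). Hoxb9 (-2.24) fell, and Hoxc9 (1.47) and Hoxd8 (0.39) rose. Of 39 other regional transcription factors, 12 were called higher, led by Foxp1 (1.59), Foxc1 (0.90) and Shox2 (0.75), and 17 lower, led by Gata2 (-1.86), Foxc2 (-1.76), Lhx9 (-1.33) and Osr2 (-1.28). Among 6 Sox genes, Sox12 rose (0.80), and Sox5 (-1.80), the cartilage factor Sox9 (-1.25) and Sox4 (-0.52) fell. The number of Hox genes called lower was 7 with at least 10 counts in every library (of 14 tested). The number of positional transcription factor genes called higher was 7 without WT replicate 1. The calls lost in some setting were those of Hoxb9 (-2.08 without WT replicate 2), Hoxc9 (1.08 to 1.43 without WT replicate 1 or Xap5 KO replicate 1 or 3) and Hoxd8 (0.24 to 0.33 without WT replicate 1, under the chromosome offset).

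Of 26 imprinted genes, which are expressed from the allele of 1 parent, 6 were called higher and 9 lower. Dlk1, a paternally expressed inhibitor of adipocyte formation, stood at 1590.0 and 1519 CPM in WT and at 256, 258 and 283 CPM in Xap5 KO (log2 fold change -2.55, SE 0.0603, edgeR adjusted p = 5.28e-18). Beside Ndn, the genes Asb4 (-4.81) and Rtl1 (-3.43), the latter a neighbour of Dlk1, fell. Peg3 (1.35), Htr2a (1.42) and Igf2 rose. No RNA of the Y-linked genes was found in Xap5 KO. Ddx3y, an RNA helicase, stood at 101 and 102 CPM in WT and at 0 CPM in all 3 Xap5 KO libraries and was at least 1312-fold lower, and Kdm5d, a histone demethylase, stood at 31.6 and 30.3 CPM in WT and at 0 CPM in all 3 Xap5 KO libraries and was at least 400.2-fold lower. All 5 tested genes of the list were called lower, and so were all 9 tested genes that the annotation puts on the Y chromosome. The median of the list was -13.23, or -8.69 with genes at their bound. These genes were also close to absent in both other knockout lines, where Ddx3y had a mean of 0.171 CPM in Nono KO and 0 CPM in Sox5 KO. On leaving out 1 library at a time the fitted value ran to -5.40 without Xap5 KO replicate 2 for Asb4.

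Interferon-stimulated genes were more often higher, from low levels. Of 68 tested, 27 were called higher and 6 lower, with a median of 0.28. The guanylate-binding and related GTPases, which attack intracellular pathogens, held 7 higher genes of 12, with a median of 1.18, and 4 with at least 10 counts in every library. Ifit3, which binds foreign RNA, stood at 2.58 and 3.56 CPM in WT and at 9.52, 12.2 and 10.97 CPM in Xap5 KO (log2 fold change 1.82, SE 0.18, edgeR adjusted p = 4.32e-08). Gbp9, which overlaps Gbp4 and Gbp8 on the same strand, stood at 4.86 and 4.81 CPM in WT and at 19.02, 20.3 and 19.2 CPM in Xap5 KO (log2 fold change 2.01, SE 0.168, edgeR adjusted p = 3.31e-09), and such near-identical copies are uncertain. The DNA sensor Ifi205 was at least 14.1-fold higher, the nucleic acid sensor Zbp1 was 32.9-fold higher (95% counting interval 11.03 to 162), and Gbp4 (3.55) and Ifi47 (2.46) rose. The transcription factors Irf5 (-2.03) and Stat2 (-0.56), the sensor Dhx58 (-1.77) and Parp14 (-1.52) fell. Of 24 antigen presentation genes, 7 were called higher, led by H2-T22 (0.60), the peptide transporter Tap1 (0.54) and the class I gene H2-D1 (0.53), and 1 lower, H2-Q4 (-0.50). The number of interferon-stimulated genes called lower was 10 under the length and GC offset and 10 without Xap5 KO replicate 3. The number of antigen presentation genes called higher was 3 under the chromosome offset and 4 without WT replicate 2. Not called in every setting were Zbp1 (3.91 without WT replicate 2), Ifi47 (2.18 without WT replicate 1), Stat2 (-0.09 under the chromosome offset), Dhx58 (-1.78 to -0.93 without WT replicate 1 or Xap5 KO replicate 2, in a fit of the 5 libraries alone), H2-T22 (0.43 without WT replicate 2) and H2-Q4 (-0.45 without WT replicate 1). With 1 library left out, the fitted value ran to 2.58 without WT replicate 1 and 9.66 without WT replicate 2 for Gbp4, to -2.67 without Xap5 KO replicate 2 for Irf5 and to -0.93 without WT replicate 1 for Dhx58.

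Chemokines and cytokines held 21 higher and 20 lower genes of 65. Saa3, an acute phase protein, stood at 34.6 and 26.98 CPM in WT and at 320.3, 340.4 and 382 CPM in Xap5 KO (log2 fold change 3.50, SE 0.132, edgeR adjusted p = 2.79e-10). Lcn2, the iron-scavenging lipocalin, stood at 4.49 CPM in both WT libraries and at 53.6, 68.1 and 47.6 CPM in Xap5 KO (log2 fold change 3.65, SE 0.162, edgeR adjusted p = 1.27e-13). Il1rl1, the receptor of interleukin 33, stood at 666 and 657 CPM in WT and at 189, 217 and 174 CPM in Xap5 KO (log2 fold change -1.77, SE 0.0755, edgeR adjusted p = 6.92e-14), and Cxcl12, the chemokine that retains stem cells in their niche, stood at 78.2 and 85.3 CPM in WT and at 26.1, 21.6 and 30.2 CPM in Xap5 KO (log2 fold change -1.65, SE 0.0997, edgeR adjusted p = 3.90e-10). Saa3 and Lcn2 were higher and Il1rl1 and Cxcl12 lower in every Xap5 KO library than in WT. The eosinophil chemokine Ccl11 (6.36) and the cytokine Il1a (5.33) rose from WT means of 0.0454 and 0.194 CPM, and Il18 (-3.83), Il11 (-2.0) and Tnfaip6 (-1.76) fell. Of 21 complement and coagulation genes, 6 were called higher, led by the C1 inhibitor Serping1 (3.18) and C4b (1.67), and 3 lower, with C1qtnf1 at -0.69. Across the fits that left out 1 library, the fitted value ran to 5.45 without WT replicate 1 and 10.25 without WT replicate 2 for Ccl11, to 6.37 without WT replicate 1 and 4.70 without WT replicate 2 for Il1a, to -4.57 without Xap5 KO replicate 1 and -3.24 without Xap5 KO replicate 2 for Il18 and to -3.01 without Xap5 KO replicate 2 for Il11.

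Genes of the integrated stress response and of protein folding in the endoplasmic reticulum (ER) were mostly higher. Of 52 tested, 35 were called higher and 4 lower, with a median of 0.50. The targets of ATF4, the factor that cells translate under amino acid or ER stress, held 19 higher and 1 lower gene of 30. Chac1, which degrades glutathione, stood at 2.903 and 3.59 CPM in WT and at 16.4, 15.02 and 12.2 CPM in Xap5 KO (log2 fold change 2.16, SE 0.165, edgeR adjusted p = 7.88e-10). Psat1, an enzyme of serine synthesis, stood at 68.3 and 60.5 CPM in WT and at 156, 173 and 152 CPM in Xap5 KO (log2 fold change 1.32, SE 0.0716, edgeR adjusted p = 3.39e-12). Atf4 itself stood at 163 and 164 CPM in WT and at 240.2, 249 and 241 CPM in Xap5 KO (log2 fold change 0.57, SE 0.0578, edgeR adjusted p = 5.87e-08). The folate enzyme Mthfd2 (1.37) rose, whereas Ddit3, which encodes CHOP, was at -0.11 and was not called, though it was called higher under the chromosome offset (0.36), and Gdf15 fell (-3.00). ER chaperones and sensors held 16 higher and 3 lower genes of 22. Hspa5, the main ER chaperone BiP, stood at 647 and 646 CPM in WT and at 1083, 1139 and 989.6 CPM in Xap5 KO (log2 fold change 0.73, SE 0.0639, edgeR adjusted p = 7.58e-09), and Sdf2l1 (1.34) rose, whereas the sensors Ern1 (-0.63) and Eif2ak3 (-0.44) and the cochaperone Dnajb9 (-0.41) fell. A change of setting ended the calls of Gdf15 (-3.49 to -2.29 without WT replicate 1 or 2 or Xap5 KO replicate 1 or 2, under the chromosome offset) and Eif2ak3 (-0.17 under the chromosome offset). The fitted value ran, on leaving out 1 library, to -2.29 without WT replicate 2 and -5.11 without Xap5 KO replicate 3 for Gdf15.

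ATF4 binds a composite element with C/EBP partners, searched here as TGATGNAA on both strands in the 250 bases before the start. It was found in 7 of 25 tested ATF4 targets with a promoter (28.0%), against 2.47% of tested genes. The list was drawn up as ATF4 targets, so that difference is no result of these data. Of the 16 called higher 5 held it (31.2%), near the share of the list, so the element did not set them apart. Windows of Chac1 (chr2:119350992-119351241, + strand) and Nupr1 (chr7:126625471-126625720, - strand), a stress-induced chromatin protein gene that rose (1.17), are shown with the element in capitals, which reads as its reverse complement in both.
Chac1: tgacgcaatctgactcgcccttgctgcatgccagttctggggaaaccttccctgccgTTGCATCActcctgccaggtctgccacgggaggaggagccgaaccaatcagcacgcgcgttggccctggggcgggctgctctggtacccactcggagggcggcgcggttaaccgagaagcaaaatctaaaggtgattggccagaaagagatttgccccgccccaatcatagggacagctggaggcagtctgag
Nupr1: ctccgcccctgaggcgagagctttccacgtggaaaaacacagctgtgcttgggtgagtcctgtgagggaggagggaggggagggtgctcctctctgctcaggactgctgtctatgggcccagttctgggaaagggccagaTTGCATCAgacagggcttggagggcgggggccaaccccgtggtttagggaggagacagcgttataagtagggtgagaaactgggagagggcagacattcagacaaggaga

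Of 23 heat shock protein genes outside the ER, 8 were called higher and 5 lower, with Hspb2 (1.99), Cryab (0.98) and the mitochondrial Hspa9 (0.45) highest and Dnajb4 (-0.82), Dnajb1 (-0.38) and Hspa4l (-0.32) lowest. Of 60 genes of redox defence, 20 were called higher and 11 lower. Sod3, the extracellular superoxide dismutase, stood at 2.13 and 1.97 CPM in WT and at 40.1, 39.8 and 34.6 CPM in Xap5 KO (log2 fold change 4.22, SE 0.126, edgeR adjusted p = 1.64e-16). The glutathione transferases Gsta3 (5.43), Mgst2 (2.22) and Gstm2 (1.41) rose and Gstm4 (-1.34) fell. The NRF2 targets held 7 higher and 4 lower genes of 25, with a median of 0.17. The classic targets Hmox1 (-0.68) and Txnrd1 (-0.39) were among the lower ones. Metallothioneins and selenoproteins held 7 higher and 2 lower genes of 13, with a median of 0.35, and the metallothionein Mt2 (-0.63) was among the lower. The number of heat shock genes called higher was 4 under scaling by library totals, 5 under the chromosome offset, 4 without WT replicate 1, 3 without WT replicate 2 and 4 without Xap5 KO replicate 2. The number of heat shock genes called lower was 3 without WT replicate 1. The number of redox genes called lower was 6 under the chromosome offset. Some settings lost the calls of Hspb2 (1.55 without WT replicate 2), Dnajb1 (-0.01 under the chromosome offset), Txnrd1 (0.08 under the chromosome offset) and Mt2 (-0.26 under the chromosome offset). On leaving out 1 library at a time the fitted value ran to 4.52 without WT replicate 1 and 9.63 without WT replicate 2 for Gsta3.

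Genes of sterol synthesis were more often higher. Of 32 genes of cholesterol synthesis and its control, 18 were called higher and 3 lower, with a median of 0.37. Nsdhl, a late enzyme of the pathway that is X-linked, stood at 67.5 and 77.2 CPM in WT and at 157, 156 and 131 CPM in Xap5 KO (log2 fold change 1.03, SE 0.114, edgeR adjusted p = 6.39e-06). The cholesterol exporter Abca1 (1.11), Ebp (0.90) and Hsd17b7 (0.88) rose, and the fatty acid regulator Srebf1 (-0.41), the LDL receptor degrader Mylip (-0.26) and Fdft1 (-0.17) fell. Of 42 fatty acid and lipid storage genes, 19 were called higher and 8 lower. Lpl, the lipase that releases fatty acids from lipoproteins, stood at 10.2 and 12.2 CPM in WT and at 192, 179 and 206 CPM in Xap5 KO (log2 fold change 4.10, SE 0.102, edgeR adjusted p = 6.45e-17). The desaturase gene Fads3 (1.80) and the carboxylase Acacb (1.17) rose beside Ppargc1a, and the droplet protein gene Hilpda (-0.85), Angptl4 (-0.58), an inhibitor of Lpl, and Lpin1 (-0.52) fell. Of 44 glycolytic and hypoxia genes, 15 were called higher and 9 lower. Adm, the vasodilator adrenomedullin, stood at 6.55 and 7.42 CPM in WT and at 56.4, 54.2 and 36.2 CPM in Xap5 KO (log2 fold change 2.81, SE 0.189, edgeR adjusted p = 5.15e-07), and the glycolytic activator Pfkfb3 (1.23) and the kinase Pgk1 (0.86) rose. The hypoxia genes Kdm3a (-0.78), Ddit4 (-0.50) and Bnip3l (-0.45) fell, as did the enolase Eno2 (-0.63), and Hif1a was at 0.02, not called. Calls depended on the setting for Fdft1 (-0.20 to -0.03 without WT replicate 1 or 2 or Xap5 KO replicate 2, under the length and GC offset, under the chromosome offset) and Ddit4 (-0.37 to -0.03 without WT replicate 1, under the chromosome offset).

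Lysosomal genes and their MiT/TFE regulators were more often lower, with 18 called higher and 32 lower of 68. Within the MiT/TFE family, Tfec and Tfeb (1.5) rose, Tfe3 rose by less (0.29), and Mitf fell (-0.34). Ctsk, a collagen-degrading cathepsin, stood at 83.2 and 84.9 CPM in WT and at 12.7, 11.2 and 13.7 CPM in Xap5 KO (log2 fold change -2.75, SE 0.0976, edgeR adjusted p = 2.94e-15). Gpnmb, a lysosomal glycoprotein, stood at 161 and 149 CPM in WT and at 805, 761 and 881 CPM in Xap5 KO (log2 fold change 2.40, SE 0.0758, edgeR adjusted p = 4.31e-16), the other way from Ctsk. The cathepsin genes Ctsf (-3.85) and Ctsb (-0.83), the GTPase Rragd (-1.76) and Cln3 (-1.47) fell, and Ctsz (0.79) and the acid lipase Lipa (0.57) rose. Among the named genes, calls were lost for Tfe3 (-0.06 under the chromosome offset) and Mitf (-0.07 under the chromosome offset). With 1 library left out, the fitted value ran to -4.72 without Xap5 KO replicate 2 for Ctsf.

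Medians shifted upwards for mitochondrial genes and downwards for cytosolic ribosomal genes. All 13 mitochondrially encoded protein genes were expressed and 12 were called higher, with a median of 0.61. mt-Nd1, a subunit of complex I, stood at 4200.4 and 4543 CPM in WT and at 8112, 7023 and 6439 CPM in Xap5 KO (log2 fold change 0.72, SE 0.0811, edgeR adjusted p = 3.02e-07). Of 75 nuclear genes for the respiratory chain, 25 were called higher and 4 lower (median 0.16), with the cytochrome oxidase subunit Cox5a (0.85), Atp5o (0.85) and Uqcrb (0.68) highest. Under the length and GC offset the counts of nuclear respiratory chain genes were 17 and 10. Of 78 mitochondrial ribosomal proteins, 30 were called higher and 4 lower (median 0.19), led by Mrps36 (0.77) and Mrpl55 (0.74). Of 80 cytosolic ribosomal proteins, 4 were called higher and 19 lower (median -0.17). The lower share of 23.8% was near the 22.3% of all tested genes, and the higher share of 5.0% was below their 23.2%. Rps12 stood at 202 and 218 CPM in WT and at 137, 132 and 134 CPM in Xap5 KO (log2 fold change -0.64, SE 0.0949, edgeR adjusted p = 4.81e-05) and Rpl13 stood at 539 and 535 CPM in WT and at 388, 412 and 413 CPM in Xap5 KO (log2 fold change -0.41, SE 0.0578, edgeR adjusted p = 5.72e-06). All 19 lower genes were also called lower against both other knockout lines, against 29.9% of all genes called lower against WT (6.68% of all tested genes). Under the length and GC offset 33 of 35 were. The X-linked Rps4x rose (0.30). The number of mitochondrially encoded genes called higher was 1 under the length and GC offset, 7 without WT replicate 1 and 7 without WT replicate 2. The number of mitochondrial ribosomal genes called higher was 19 without WT replicate 1. The number of cytosolic ribosomal genes called lower was 35 under the length and GC offset. Calls that a setting ended were those of Uqcrb (0.28 to 0.64 without WT replicate 2, under the length and GC offset, under the chromosome offset), Rps12 (-0.17 under the chromosome offset), Rpl13 (-0.04 under the chromosome offset) and Rps4x (-0.06 to 0.08 under the length and GC offset, under the chromosome offset).

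Several smaller families held both higher and lower genes, beside 23.2% higher and 22.3% lower over all tested genes. Of 21 clock genes, 8 were called higher and 2 lower. Npas2, a partner of the clock activator Bmal1, stood at 5.76 and 3.77 CPM in WT and at 0.103, 0 and 0.309 CPM in Xap5 KO (log2 fold change -5.10, SE 0.486, edgeR adjusted p = 1.59e-07), and Hlf, an output factor, stood at 1.14 and 0.726 CPM in WT and at 9.86, 9.69 and 11.1 CPM in Xap5 KO (log2 fold change 3.46, SE 0.185, edgeR adjusted p = 2.78e-12). Per3 (1.0) and Rora (0.71) rose, Bhlhe40 fell (-0.70), and Clock was at 0.08 and Arntl, which encodes Bmal1, at 0.13, neither called. Potassium and calcium channels held 9 higher and 11 lower genes of 59, led by the calcium channel subunit Cacnb2 (3.28) and, among the lower, Kcnmb4, at least 26.7-fold lower, Cacna1i (-4.68), Kcnn4 (-2.95) and Kcnk3 (-2.87). Of 363 zinc finger genes with a Zfp symbol, 41 were called higher and 80 lower, with Zfp980 (5.13), Zfp600 (4.17) and Zfp978 (3.36) highest and Zfp708, 125-fold lower (95% counting interval 42.4 to 611), Zfp467 (-1.43) and Zfp605 (-1.28) lowest. Retinoid genes held 4 higher and 3 lower members of 21, with the aldehyde dehydrogenases Aldh1a7 (4.19) and Aldh1a1 (2.25) higher and the retinoic acid-binding Crabp1 (-2.04) lower. The primary cilium list, kept for reference, held 7 higher and 10 lower genes of 50, with a median of -0.04, led by Ift22 (0.65) and Ift122 (-0.63). Of the small RNA host genes, Snhg4 was tested, at 0.28, and was not called. The number of clock genes called higher was 5 without WT replicate 2. The number of channel genes called higher was 5 in a fit of the 5 libraries alone (of 48 tested) and 5 without WT replicate 1. The number of channel genes called lower was 7 with at least 10 counts in every library (of 28 tested). The number of Zfp genes called higher was 26 under the chromosome offset, 23 without WT replicate 1 and 22 without WT replicate 2. The number of primary cilium genes called higher was 4 under scaling by library totals, 4 under the chromosome offset, 4 without WT replicate 1, 3 without WT replicate 2 and 4 without Xap5 KO replicate 1. The calls lost in some setting were those of Cacna1i (-4.73 in DESeq2), Zfp978 (2.89 without WT replicate 2) and Aldh1a1 (2.03 to 2.49 without WT replicate 1 or 2). Across the fits that left out 1 library, the fitted value ran to -4.52 without Xap5 KO replicate 2 and -6.48 without Xap5 KO replicate 3 for Npas2, to 10.19 without WT replicate 1 and 4.11 without WT replicate 2 for Zfp980, to 5.17 without WT replicate 1 and 3.55 without WT replicate 2 for Zfp600 and to 3.99 without WT replicate 1 and 2.53 without Xap5 KO replicate 2 for Zfp978.

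Differences from WT can be shared by other knockout lines grown in parallel, so the same Xap5 KO libraries were also compared directly with Nono KO and Sox5 KO. Xap5 KO was called different from Nono KO for 53.0% of tested genes (27.1% higher, 25.9% lower) and from Sox5 KO for 61.6% (31.1% higher, 30.4% lower). At least 2-fold, Xap5 KO was higher than Nono KO for 5.24% and lower for 5.81% of tested genes, and higher than Sox5 KO for 7.91% and lower for 7.06%. Called against WT and, in the same direction, against both other lines were 886 higher genes (6.65%) and 890 lower genes (6.68%), or 28.7% of the higher and 29.9% of the lower genes against WT. Of several lists described above few higher genes were among them: 2 of 35 ATF4 and ER genes, 2 of 20 contractile genes, 4 of 24 histones, 1 of 25 nuclear respiratory chain genes and 1 of 12 mitochondrially encoded genes. For the 18 higher sterol genes and the 30 higher mitochondrial ribosomal genes the count was 0 by edgeR, 0 at an unadjusted p under 0.05 and 0 by DESeq2. The counts were 10 of 27 higher interferon-stimulated genes, 4 of 16 lower BMP genes and 5 of 13 lower Hox genes. Ranked by the smallest of the 3 fold changes, the highest were Shroom2, Steap4, Syt13, Lcn2, Irag1, Nos2, Defb41 and Gdpd2. Nos2, the inducible nitric oxide synthase of inflamed cells, stood at 1.49 and 1.18 CPM in WT and at 13.9, 14.8 and 10.1 CPM in Xap5 KO (log2 fold change 3.28, SE 0.356, edgeR adjusted p = 2.17e-07), with means of 0.486 CPM in Nono KO and 0.674 CPM in Sox5 KO. Steap4, a metal reductase induced by inflammation, stood at 0.521 and 0.0908 CPM in WT and at 15.9, 18.1 and 25.3 CPM in Xap5 KO (log2 fold change 6.03, SE 0.639, edgeR adjusted p = 2.32e-05), with means of 0.379 and 0.605 CPM in the same lines. Gdpd2, a phosphodiesterase of glycerophospholipids, stood at 6.55 and 5.76 CPM in WT and at 69.4, 60.8 and 53.4 CPM in Xap5 KO (log2 fold change 3.31, SE 0.213, edgeR adjusted p = 1.10e-08), and Syt13, a synaptotagmin, rose (5.01). The lowest were Shc2, Cst6, Dkk2, Il18, Mab21l2, Fam83h, Col5a3 and Ntn1. Shc2 stood at 66.3 and 65.4 CPM in WT and at 0.309, 0.316 and 0.0515 CPM in Xap5 KO (log2 fold change -8.16, SE 0.196, edgeR adjusted p = 5.25e-17), with means of 43.97 CPM in Nono KO and 33.3 CPM in Sox5 KO. Fam83h (-4.63) fell as well. Col5a3 stood at 21.4 and 21.1 CPM in WT and at 2.73, 1.83 and 3.32 CPM in Xap5 KO (-3.02), below Sox5 KO (mean 26.8 CPM) and Nono KO (mean 111 CPM). The fitted value ran, on leaving out 1 library, to 7.70 without WT replicate 1 and 5.23 without WT replicate 2 for Steap4 and to 4.24 without WT replicate 1 and 6.85 without WT replicate 2 for Syt13.

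**Figure D4:**
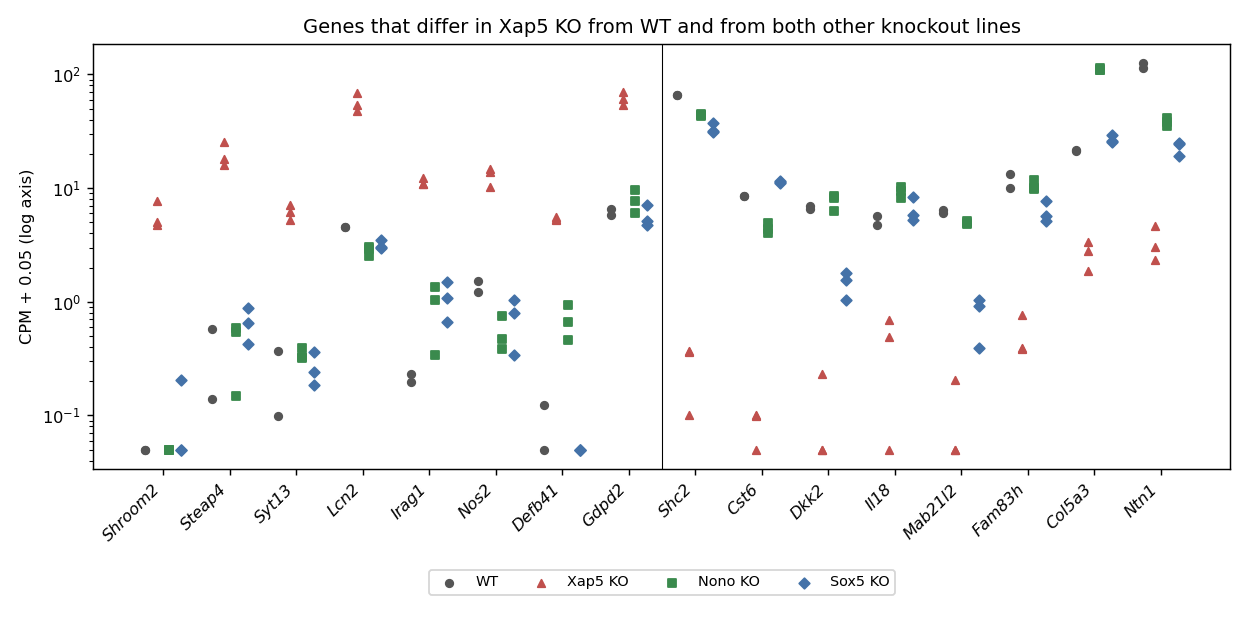
Level in CPM plus 0.05 (vertical log axis) of the 8 highest and 8 lowest genes that differ in Xap5 KO from WT and from both other knockout lines, 1 point a library. The 3 Xap5 KO triangles lie above every other library in the left panel and below every other library in the right panel.

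Some chromosomes were shifted as wholes, which touches every list above. NIH/3T3 is an aneuploid line, and copy numbers were not analysed here. On chromosome X, 234 of 438 tested genes were called higher and 38 lower, with a median log2 fold change of 0.36, and on chromosome 13 the counts were 210 and 43 of 502, with a median of 0.29. On chromosome 10, 28 of 643 were called higher and 400 lower, with a median of -0.46, and on chromosome 8 the counts were 51 and 405 of 715, with a median of -0.35. Against Nono KO and Sox5 KO, compared with the same Xap5 KO libraries, the medians were 0.73 and 0.29 on chromosome X, 0.24 and 0.40 on chromosome 13, -0.34 and -0.18 on chromosome 10, and -0.25 and -0.59 on chromosome 8. Chromosome 6 had a median of -0.25, chromosome 12 of -0.16 and chromosome 17 of 0.18. Many histone genes lie on chromosome 13, and the part of the chromosome in their values was not tested. Cdk1 and the type VI collagen chains Col6a1 and Col6a2 lie on chromosome 10. With the median of its chromosome subtracted from each gene, 5201 genes were called in place of 6064.

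**Figure D5:**
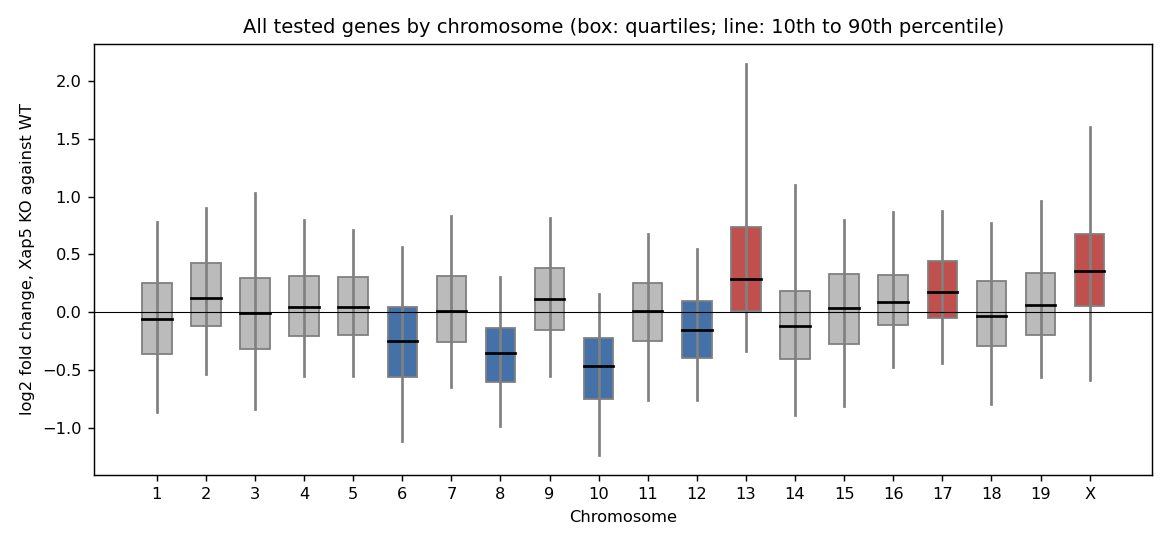
Log2 fold change of Xap5 KO against WT (vertical axis) of all tested genes by chromosome (horizontal axis), with boxes at the quartiles, lines reaching further into both tails and the median as a bar. Red and blue boxes mark chromosomes with clearly positive and negative medians. Chromosomes X, 13 and 17 lie high and chromosomes 10, 8, 6 and 12 low.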

How the data were processed

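The 11 libraries hold RNA of serum-starved NIH/3T3 cells, and the comparison described here used the 3 labelled Xap5 KO and the 2 labelled WT. The authors deposited a table of gene counts for 21684 genes, which carry estimated counts in the sense that values of 2 (3302) are more frequent than values of 1 (857), as when read pairs are summed from coverage; columns were matched to samples by title. HISAT2 2.1.0, StringTie 1.3.3b and DESeq2 1.12.4 and the build GRCm39 (mm39) are named in the submitters' processing notes, with no role given, and the annotation and the strand setting are not given in the sources used here.

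All 11 libraries were fitted with edgeR 4.0.16 in R 4.3.3 (filterByExpr, TMM, quasi-likelihood F-test, Benjamini-Hochberg adjustment over 13332 tested genes, no replicate block), and contrasts were taken between groups. The numbers of replicates were not used to pair libraries. Deviations from group means correlated at -0.02 to 0.05 for same-numbered libraries and at -0.05 to 0.02 for others. Such low values cannot show whether the numbers pair libraries. DESeq2 1.42.0, other scalings and filters, offsets for length and GC content (mgcv 1.9.3) and for chromosome, and leaving out each library were alternatives. Chromosome, length, GC content and overlapping exons came from GENCODE M21 (GRCm38), which held 21540 of the IDs (13293 of the tested genes), so no coordinates of the files were used. Of the named genes, exons of 11 overlap a gene on the same strand and of 36 a gene on the opposite strand. The 11 are Atp5o, Ddit3, Foxp1, Gbp4, Gbp9, Ifi47, Igf2, Isy1, Itga1, Snhg4 and Zfp708. Their values may hold reads of the overlapping gene, which counting intervals do not cover. Promoter sequences are RefSeq's on GRCm38.p6. The 51 gene lists, 2187 of whose 2760 entries were tested, and all rules were chosen with earlier results of these data known. The text names the 12 highest and lowest genes, up to 4 called genes per list and direction (mean of at least 1 CPM), and genes that also differed from both other lines. Of the 399 genes given with values, 102 lie outside these ranks and were chosen after their values were seen, as well-known or related members of a list or family. For a gene without counts in the lower group, a bound against 3 counts per library is given, and where every library of that group has at most 3 counts, not all 0, a ratio with its 95% interval. Other genes have fitted values, which are imprecise where single libraries are at 0 or near it. On simulated counts of 13021 genes, 97 genes were changed 1.5-fold and 97 were changed 2-fold. Of these, 60.8% and 78.4% were called. Of all genes called there, 2.17% were unchanged ones. In the data 45.5% of tested genes were called, so these shares need not hold there. The simulated spread was that between libraries. The common biological coefficient of variation was 10.6%. Some items are not reported here.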

Additional observations from a re-analysis of the deposited data

How the results depend on the processing

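Xap5 KO against WT gave 6064 called genes, 6133 with DESeq2, 6030 with RLE scaling, 6047 with library totals (2652 higher and 3395 lower), 5640 to 5893 with other filters, 5784 in a fit of the 5 libraries alone, 6390 with the length and GC offset and 5201 with the chromosome offset, and 4627 to 6140 when 1 library was left out. At least 2-fold, the calls were 1370 (756 higher, 614 lower) against WT, 1474 (699 higher, 775 lower) against Nono KO, 1995 (1054 higher, 941 lower) against Sox5 KO and 265 against WT and both lines. Against Nono KO, library totals moved the median of all genes from 0.01 to 0.12 and the split from 3613 higher and 3458 lower to 4721 higher and 2624 lower. With the replicate number as a block the counts were 5916 against WT, 6987 against Nono KO, 8136 against Sox5 KO and 1705 for all 3. Whether the numbers pair these libraries is not known. Of 384 called genes named in the text, 330 kept call and direction in each of the 21 other settings in which they were tested. With at least 10 counts in every library, 315 of the 399 genes given with values had the same result and 1 turned. The rest were not tested in that setting. Under the chromosome offset the direction turned for Cdk1 (0.14), Ddit3 (0.36), Fos (0.0113), Hnrnph2 (-0.0015), Hnrnph3 (0.0052), Igf1r (-0.0055), Ptch1 (-0.003), Rps4x (-0.061), Snrpd3 (0.0072), Tfe3 (-0.0623) and Txnrd1 (0.0807). Directions of uncalled genes turned elsewhere: Hif1a with library totals (-0.0336), the block (-0.0215) and the length and GC offset (-0.0233), Notch2 (0.152) and Trp53 (0.0184) with that offset, Mcm3 with library totals (-0.0369), and Igf1r with library totals (-0.0447), no filter (-0.0005), at least 10 counts (-0.0012), no mitochondrial genes (-0.0004) and the fit of 5 libraries (-0.0025). On leaving out 1 library Fos ran from -0.467 to 0.251, Hif1a from -0.009 to 0.0305, Igf1r from -0.0301 to 0.0295, Mcm3 from -0.0212 to 0.0501, Mcm5 from -0.0171 to 0.1997, Notch2 from -0.0814 to 0.0354, Snhg4 from -0.174 to 0.741 and Trp53 from -0.0824 to 0.0089. The causes were not tested. Depth limits genes near the floor, whose fitted folds or ratios are imprecise.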

Other observations

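Gene families were also formed from the letters that open a symbol, for stems with at least 10 tested genes, and the 6 stems with the highest share of higher and of lower genes were read out. Their members were chosen after the values were seen, so they are a description without a test, beside 23.2% higher and 22.3% lower over all tested genes. Among the families with higher genes, Adamts proteases (8 of 12), interferon-inducible Ifi genes (7 of 12) and Kif motors (16 of 31) belong to groups described above. Intracellular serine protease inhibitors of the Serpinb family held 6 higher and 2 lower genes of 12, with a median of 1.60, or 1.58 with genes at the floor at their bound. Serpinb9b stood at 0.893 and 0.454 CPM in WT and at 10.99, 13.5 and 11.2 CPM in Xap5 KO (log2 fold change 4.15, SE 0.356, edgeR adjusted p = 1.25e-08), Serpinb9 rose (1.13) and Serpinb8 fell (-0.85). Subunits of the mitochondrial import machinery with the stem Timm held 7 higher and 1 lower gene of 14, with the channel gene Timm23 (0.62) and Timm8b (0.66) highest and Timm13 (-0.58) lower. Prolyl isomerases of the Fkbp family held 6 higher and 4 lower genes of 13, with Fkbp1a at 0.62, the ER members Fkbp2 (0.62) and Fkbp11 (0.57) higher and Fkbp4 (-0.37), a partner of Hsp90, lower. Not called in every setting were Timm23 (0.57 to 0.65 without WT replicate 1 or 2), Timm8b (0.35 to 0.69 without WT replicate 1 or 2 or Xap5 KO replicate 1 or 3, without the expression filter, under the length and GC offset, under the chromosome offset), Timm13 (-0.11 under the chromosome offset) and Fkbp4 (-0.10 under the chromosome offset).

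Among the families with lower genes, semaphorins (8 of 14) belong to a group described above. The 11 genes with the stem Irf, 6 of them lower, share opening letters and need not all be interferon regulatory factors. Phosphoinositide kinase genes with the stem Pik held 1 higher and 8 lower genes of 12, with a median of -0.33. Pik3r5, a regulatory subunit of PI3-kinase gamma, stood at 79.96 and 82.6 CPM in WT and at 19.3, 18.6 and 16.2 CPM in Xap5 KO (log2 fold change -2.17, SE 0.0879, edgeR adjusted p = 2.52e-14), and the catalytic subunit genes Pik3cb (-0.61) and Pik3ca (-0.29) also fell. The Galnt enzymes, which start mucin-type O-glycans, held 3 higher and 8 lower genes of 14 (median -0.44), with Galnt15 (-2.44) and Galnt12 (-1.74) among the lower and Galnt13 (1.06) among the higher. The membrane-binding annexins held 3 higher and 5 lower genes of 10 (median -0.28). Anxa3 stood at 17.8 and 18.1 CPM in WT and at 96.02, 93.7 and 78.5 CPM in Xap5 KO (log2 fold change 2.32, SE 0.106, edgeR adjusted p = 3.13e-12), against Anxa4 (-0.94), Anxa7 (-0.85) and Anxa5 (-0.45), which fell. Syntaxin genes, which encode SNARE proteins of membrane fusion, held 7 lower genes of 15 (median -0.21), with Stx11 (-0.80) and Stx7 (-0.55) among them. A change of setting ended the calls of Stx11 (-0.33 under the chromosome offset) and Stx7 (-0.08 under the chromosome offset).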
